A study of Mus musculus with 8 samples.

Results

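The genes described here are the components, receptors and regulators of the complement system, taken by symbol from a list of 36 mouse genes. Of these, 35 were among the 21049 gene symbols of the expression table, and C4a was not analysed here. The messenger RNA of 8 mouse samples was sequenced, 4 from a control group and 4 from an alcohol group, in a series on alcohol-related liver disease. Control samples received saline and the other samples alcohol, all are labelled wild type, and the design text names C57BL/6 mice, an inbred laboratory strain, with an alcohol-fed group. The sources used here do not state age, sex, alcohol dose or duration. The labels give liver as the tissue and hepatocyte as the cell type of every sample, and also name AML12, an immortalised mouse hepatocyte line, and all samples share a single batch label. Albumin (Alb) lay between 35561 and 46022 FPKM (fragments scaled to gene length and library total) across the 8 samples. The Kupffer cell gene Clec4f lay between 5.06 and 15.6 FPKM and the erythroid gene Alas2 between 30.5 and 61.5 FPKM, so the libraries held transcripts that a hepatocyte line alone does not supply. Nothing in the sources says that the samples came from separate animals, and p-values here measure only how these samples spread, which may be technical.

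Complement is a cascade of plasma proteases and recognition proteins, most of them made by hepatocytes. C1q opens the classical pathway on bound antibody, mannose-binding lectins, ficolins and collectins open the lectin pathway on microbial sugars, and factors B and D with properdin run the alternative pathway. All routes cleave C3 and then C5, whose larger fragment gathers C6, C7, C8 and C9 into the membrane attack complex, while soluble and membrane-bound regulators keep the cascade off host cells.

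Library totals recovered from the values ran from 33872595 to 34789814 reads in the controls and from 37132631 to 38407511 reads with alcohol. Of 9228 genes whose mean over all samples reached 1 FPKM, 4080 were higher and 1203 lower with alcohol (limma on log2(FPKM + 1), Benjamini-Hochberg adjusted p under 0.05), which are 44.2% and 13%. The median change of all tested genes was 0.24 on this log2 scale, and it was 0.40 on a TPM scale, -0.03 with median-of-ratios scaling and -0.01 with quantile normalization. The share of the called genes that were higher was 77.2%, against 85.7%, 45.3% and 49.1% under those scalings in the same order.

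Of the 35 complement genes, 33 passed the expression minimum and were tested, and C3ar1 and C5ar1 lay below it. With alcohol, 8 of the 33 rose (24.2%, against 44.2% of all tested genes) and 18 fell (54.5%, against 13%), while 7 did not pass. All 4 alcohol values lay above all 4 control values for 6 of the 33, against 39.5% of all tested genes, and below them for 17, against 10.7%. The median change of the 33 genes was -0.40 on the log2(FPKM + 1) scale, and it was -0.26, -0.73 and -0.45 with TPM, median-of-ratios and quantile scaling. The 8 that rose were the protease C1rl, the central component C3, the recognition proteins Fcna, Colec10 and Colec11, the lectin pathway protease Masp1 and the regulators C4bp and Cd55. The largest falls were those of factor D (Cfd) and of the terminal components C6 and C9. Of the 26 calls, 14 held in every alternative in which the gene was tested, namely the rises of Masp1, Colec10 and Cd55 and the falls of C6, C8a, C8b, C8g, C9, Cfb, Cfd, Mbl1, Mbl2, Serping1 and Vtn. Colec10 and Cd55 lie under a mean of 5 FPKM and were not tested in the alternative with that minimum. In bulk samples, fewer cells of a type and less RNA per cell cannot be told apart.

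**Figure D1:**
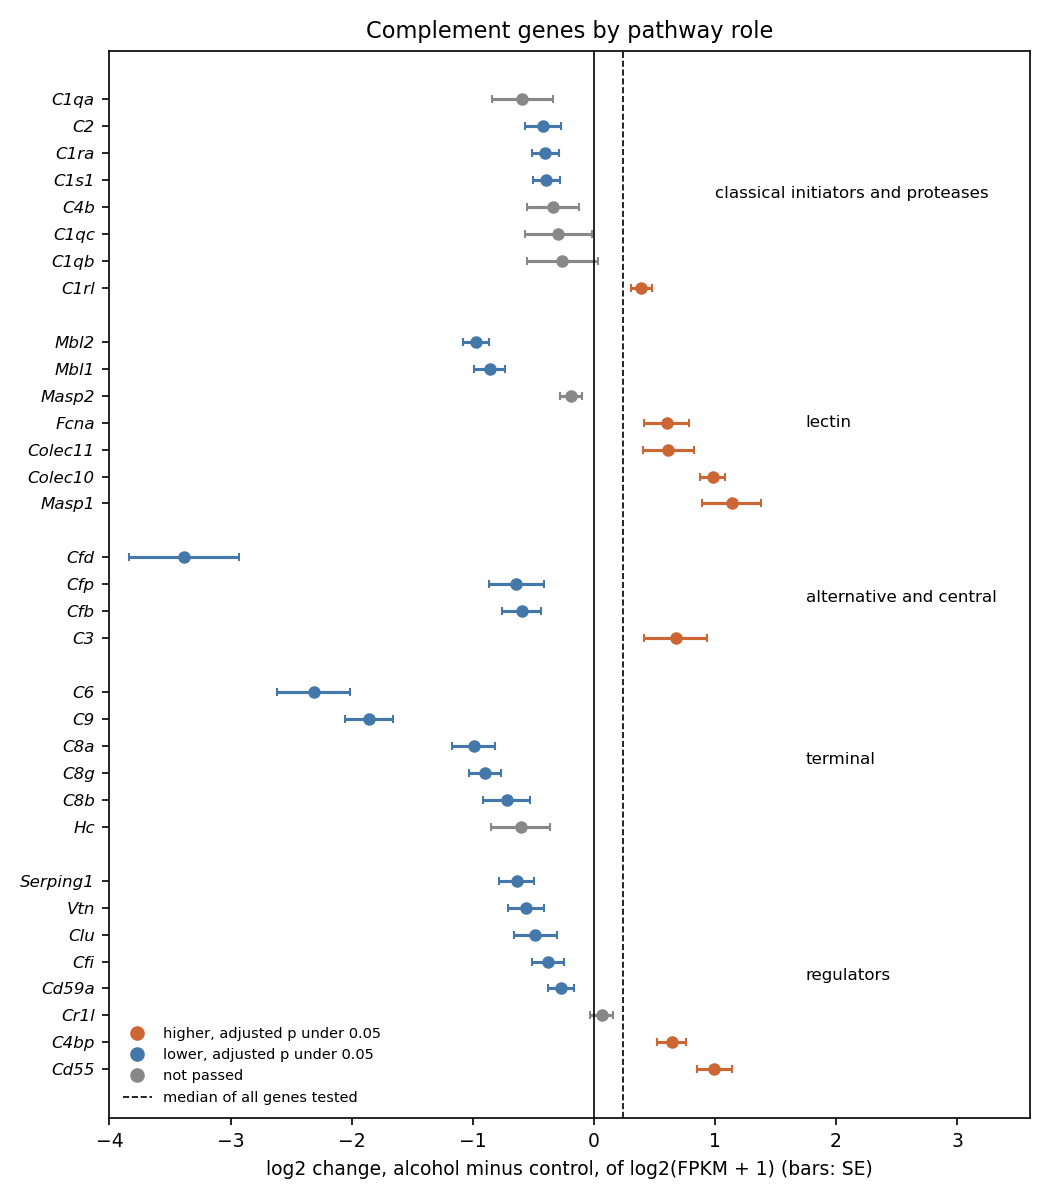
Log2 change with alcohol (horizontal axis, log2(FPKM + 1), alcohol mean minus control mean, bars are SE) for the 33 tested complement genes, grouped by pathway role, with the median of all tested genes as a dashed line. All 6 terminal genes lie left of 0, and 4 of the 7 lectin pathway genes lie right of the dashed line and are marked as higher.

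Of all tested genes 44.2% rose and 13% fell, which is the background for the counts below that name no other scaling. By role, the 8 classical pathway genes held 1 rise, 3 falls and 4 that did not pass, with a median log2 change of -0.36. The 7 lectin pathway genes held 4 rises, 2 falls and 1 that did not pass, with a median of 0.60, and the 4 alternative pathway and central genes held 1 rise and 3 falls, with a median of -0.62. The 6 terminal genes held 5 falls and no rise, with a median of -0.94. The 8 regulators held 2 rises, 5 falls and 1 that did not pass, with a median of -0.32. The sign of each of these medians was the same under the TPM, median-of-ratios and quantile scalings, but the counts shifted. On the TPM scale the classical genes held 1 rise and 0 falls and the regulators 2 and 2. The lectin genes held 2 rises and 3 falls with median-of-ratios scaling and 2 and 2 with quantile normalization. Of all 9228 tested genes 4867, 2170 and 2221 rose and 814, 2616 and 2307 fell under the 3 scalings, in the order named first. By the cell that is the textbook source in liver, 15 of 22 tested genes secreted by hepatocytes fell and 4 rose (median -0.52). Falls among these 22 numbered 10, 18 and 11 with TPM, median-of-ratios and quantile scaling. Of 6 hepatocyte markers Apoa1 (log2 change -0.87, adjusted p = 0.00108) and Ttr (-0.65, adjusted p = 0.0115) fell, Ahsg rose (0.78, adjusted p = 0.00159) and Alb, Apob and Fgb did not pass, and the 6 together summed to 62172 to 68161 FPKM in the controls and 60634 to 68986 FPKM with alcohol. Among macrophage genes, 1 of 5 tested rose, 1 fell and 3 did not pass (median -0.29). Both genes assigned to stellate cells, Colec10 and Colec11, rose, and only Colec10 kept its call with median-of-ratios or quantile scaling. The difference between these groups was not tested.

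As a sum of FPKM, the 35 genes took 5977 to 8986 FPKM in the controls and 5502 to 6256 FPKM with alcohol, ranges that overlap. C3 moved against most of the other members, and without C3 the sums were 5442 to 7720 FPKM in the controls and 4504 to 4721 FPKM with alcohol, which do not overlap. As a share of all FPKM in a sample, the members without C3 took 0.949% to 1.49% in the controls and 0.864% to 0.977% with alcohol, which overlap. C3 was left out for its direction in these data, and the sums carry no test. The 6 terminal genes summed to 1084 to 1675 FPKM in the controls and 601 to 662 FPKM with alcohol. The 7 lectin pathway genes, of which 4 rose, summed to 413 to 465 FPKM in the controls and 289 to 301 FPKM with alcohol. In the controls vitronectin (Vtn) was the most abundant member by mean FPKM, at 1764 ± 313 FPKM (SD, n = 4), ahead of C3 at 804 ± 324 FPKM. With alcohol C3 was at 1241 ± 285 FPKM (SD, n = 4) and Vtn at 1182 ± 22.2 FPKM, so these neighbours in the order did not differ beyond their spread, and C4bp followed at 540 ± 14.5 FPKM. C4bp moved from rank 6 to rank 3 of 35, C9 from rank 9 to rank 14 and C6 from rank 17 to rank 22.

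The classical pathway starts with C1q, whose A, B and C chains are encoded side by side on chromosome 4 and are made by macrophages, in liver the Kupffer cells. C1qa was at 28.3, 12.2, 21.4 and 29.7 FPKM in control replicates 1 to 4 and at 19.1, 12.5, 14.1 and 11.6 FPKM in alcohol replicates 1 to 4. Control replicate 2 lay among the alcohol values, and the groups overlapped for all 3 chains. The changes did not pass, at -0.59 (SE 0.25, limma adjusted p = 0.0644) for C1qa, -0.26 (SE 0.29, adjusted p = 0.463) for C1qb and -0.29 (SE 0.28, adjusted p = 0.385) for C1qc. Without control replicate 2 all 3 chains passed as lower, with adjusted p = 0.00359, 0.0296 and 0.0384 for C1qa, C1qb and C1qc. C1qa also passed without alcohol replicate 1 (adjusted p = 0.0353), and leaving out single samples gave it adjusted p from 0.00359 to 0.175. C1qa also passed after median-of-ratios scaling (-0.91, adjusted p = 0.0137) and quantile normalization (-0.78, adjusted p = 0.0272). Without control replicate 1 the changes of C1qb and C1qc were -0.06 and -0.13, without control replicate 4 they were -0.11 and -0.10, and without alcohol replicate 1 that of C1qb was -0.40.

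The C1q chains moved with other macrophage transcripts from sample to sample. The sum of 10 Kupffer cell and macrophage marker genes was 128, 43.2, 66.9 and 108 FPKM in the controls and 78.8, 56.4, 53.9 and 51.0 FPKM with alcohol. None of its 7 tested genes rose (against 44.2% of all tested genes) and 2 fell (against 13%), Folr2 and Cd68. The C1q chains together came to 0.745 ± 0.0756 of that marker sum in the controls and 0.757 ± 0.0216 with alcohol (SD, n = 4 each). Ficolin A (Fcna), a recognition protein of Kupffer cells, went the other way, from 0.205 ± 0.052 to 0.430 ± 0.115 of the marker sum, with every alcohol sample above every control. Properdin (Cfp), which stabilises the alternative pathway convertase and is made by myeloid cells, was at 0.0872 ± 0.016 and 0.0685 ± 0.00285 of the marker sum. These ratios were chosen after the values were seen and carry no test.

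**Figure D2:**
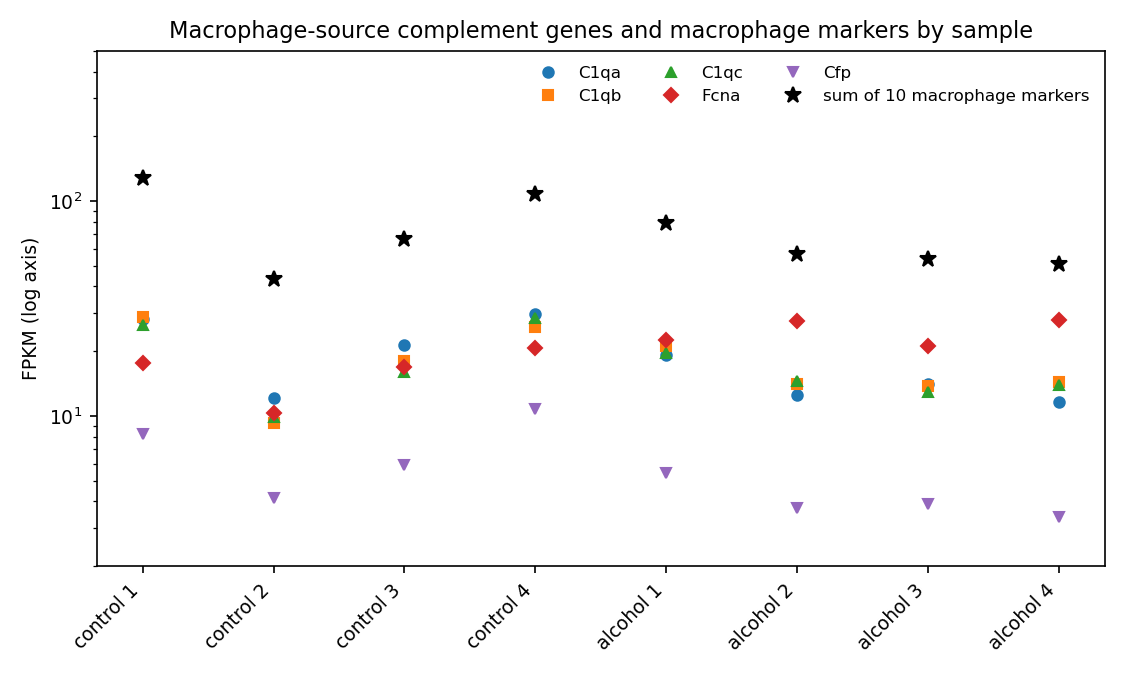
FPKM on a log axis of the 5 complement genes of macrophage source that were tested and of the sum of 10 macrophage markers, in each of the 8 samples. The C1q chains and Cfp are lowest among the controls in replicate 2, as is the marker sum, while the 4 alcohol values of Fcna, 21.2 to 28.0 FPKM, lie above all its control values.

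The proteases that C1q carries are made by hepatocytes. C1ra fell from 113 ± 12.1 to 85.0 ± 5.38 FPKM (SD, n = 4 each, log2 change -0.40, SE 0.11, limma adjusted p = 0.00978) and C1s1 from 163 ± 14.8 to 124 ± 10.6 FPKM (-0.39, SE 0.11, adjusted p = 0.0113), with no overlap between the groups for either. Their ratio within a sample was 0.694 ± 0.0358 in the controls and 0.689 ± 0.0259 with alcohol. C1rl, a protease related to C1r, rose from 49.0 ± 1.13 to 64.7 ± 2.28 FPKM (log2 change 0.39, SE 0.09, adjusted p = 0.00302), also with no overlap. The 3 genes are neighbours on chromosome 6 of GRCm38, C1rl at 124493113-124510643 and C1ra at 124512405-124523443 on the plus strand and C1s1 at 124530345-124542359 on the minus strand, with gaps of 1761 and 6901 bases. The calls of C1ra and C1s1 were lost on the TPM scale and with quantile normalization, and that of C1rl with median-of-ratios scaling, where its change was 0.06. How reads of C1ra and C1s1 were divided from their near-identical copies C1rb and C1s2 is not known, and C1rb and C1s2 were listed at means of 0.985 and 0.1 FPKM in the controls.

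C2 and C4 form the classical convertase that cleaves C3. C2 fell from 52.9 ± 12.7 to 38.5 ± 2.09 FPKM (log2 change -0.42, SE 0.15, limma adjusted p = 0.0313), and control replicate 1, at 70.6 FPKM, stood above the other controls, at 43.4 to 53.6 FPKM. Without that sample the change was -0.28 (adjusted p = 0.0448), and the call was lost without control replicate 4 (adjusted p = 0.0685) or alcohol replicate 1, 2 or 4 (adjusted p = 0.0667, 0.0595 and 0.0612), out of a range of 0.023 to 0.0685 over single samples left out. It was lost as well on the TPM scale (adjusted p = 0.171) and without a filter (adjusted p = 0.0702). C2 shares exonic sequence on its own strand with the annotated gene Gm20547, as does Cfb, so reads could be divided between them. C4b was at 201 ± 69.8 and 155 ± 28.4 FPKM with overlapping groups and did not pass (-0.34, SE 0.22, adjusted p = 0.205). The change was -0.12 without control replicate 1, and median-of-ratios scaling made it a fall past the threshold (-0.67, adjusted p = 0.0198, out of 0.0198 to 0.529 over its alternatives). Its near-identical neighbour C4a was not analysed here, so the C4b value may hold reads of either.

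In the lectin pathway the recognition proteins divided. The mannose-binding lectins of hepatocytes fell, while the ficolin and collectins of other liver cells rose. Mbl2 was at 257, 317, 282 and 286 FPKM in control replicates 1 to 4 and at 138, 143, 158 and 140 FPKM in the alcohol samples. The lowest control was above the highest alcohol value by a wide margin, and the fall was 1.97-fold in means (log2 change -0.97, SE 0.11, limma adjusted p = 4.79e-05). Mbl1, the second mouse mannose-binding lectin, was at 40.0, 37.9, 35.3 and 43.7 FPKM in the controls and at 25.7, 22.5, 17.2 and 19.8 FPKM with alcohol. Its groups did not overlap either (log2 change -0.86, SE 0.13, adjusted p = 0.000305). The ratio of Mbl2 to Mbl1 was 7.33 ± 0.991 in the controls and 7.0 ± 1.61 with alcohol, with overlapping groups, and the genes lie on different chromosomes, Mbl1 on 14 and Mbl2 on 19.

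Colec10, a collectin known from hepatic stellate cells, was at 1.51, 2.11, 1.83 and 2.04 FPKM in the controls and at 5.16, 4.60, 4.08 and 4.83 FPKM with alcohol. Every alcohol sample was above every control, a rise of 2.49-fold in means (log2 change 0.98, SE 0.10, limma adjusted p = 3.58e-05). Colec11, with which Colec10 forms a mixed complex, rose from 7.97 ± 2.33 to 12.6 ± 2.80 FPKM (0.62, SE 0.21, adjusted p = 0.0262), with control replicate 3 among the alcohol values. That call was lost without control replicate 1 or 4 (adjusted p = 0.0527 and 0.0534) and without alcohol replicate 2 or 4 (adjusted p = 0.0678 and 0.0696), out of 0.013 to 0.0696 over single samples left out. Median-of-ratios scaling (0.31, adjusted p = 0.273) ended it too, as did fits with quantile normalization (0.36, adjusted p = 0.222) and without a filter on low values (adjusted p = 0.0816). Stellate markers moved in the same direction, since 5 of 6 tested rose (against 44.2% of all tested genes). Their sum went from 64.2 to 121 FPKM in the controls to 166 to 225 FPKM with alcohol. Relative to that sum, Colec10 was at 0.020 ± 0.00354 and 0.0246 ± 0.00451, with overlapping groups. Colec11 was at 0.0817 ± 0.0054 and 0.0649 ± 0.00615 of the sum, with every alcohol sample below every control. The part of stellate RNA content in these rises was not tested.

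Fcna was at 17.7, 10.3, 16.8 and 20.7 FPKM in the controls and at 22.5, 27.6, 21.2 and 28.0 FPKM with alcohol. The groups did not overlap, and the log2 change was 0.60 (SE 0.19, limma adjusted p = 0.0173). The call was lost with median-of-ratios scaling, quantile normalization or no filter on low values, and its exons overlap the antisense gene Fcnaos, from which reads cannot be told apart without strand. Of the lectin pathway protease genes, Masp1 was at 9.63, 4.51, 5.01 and 4.41 FPKM in the controls and at 19.2, 10.6, 15.5 and 10.5 FPKM with alcohol. Control replicate 1 stood apart at about the level of the lowest alcohol samples, and still all alcohol values were higher, a rise of 2.37-fold in means (1.14, SE 0.24, adjusted p = 0.00245). Without that control the Masp1 change was 1.37 and without the other samples in turn it was as low as 0.98. Masp2 was at 82.7 ± 1.5 and 72.5 ± 3.20 FPKM, and although no alcohol sample reached the lowest control it did not pass (-0.19, SE 0.09, adjusted p = 0.0931). Median-of-ratios scaling turned this into a fall (-0.52, adjusted p = 0.00112), as did the fit without a filter on low values (adjusted p = 0.0272), with 0.00112 to 0.706 over all its alternatives. The FPKM of the Masp2 gene was above that of Masp1 in every sample, and the ratio of Masp1 to Masp2 went from 0.0713 ± 0.0306 to 0.194 ± 0.0642.

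C3, the component on which all routes meet, was at 1266, 535, 632 and 781 FPKM in control replicates 1 to 4 and at 1572, 1009, 1387 and 998 FPKM in the alcohol samples. Control replicate 1 lay among the alcohol values, and the other controls lay below all of them. The rise was 1.54-fold in means (log2 change 0.68, SE 0.26, limma adjusted p = 0.0439). It was lost without control replicate 2, 3 or 4 (adjusted p = 0.124, 0.113 and 0.0784) or alcohol replicate 1 or 3 (adjusted p = 0.108 and 0.097), and leaving out single samples gave 0.00366 to 0.124. With median-of-ratios scaling the change was 0.34 and did not pass, nor did C3 pass without a filter on low values (adjusted p = 0.123). With same-numbered samples taken as a block in limma, C3 kept its call (adjusted p = 0.00579). Control replicate 1 was the highest control for 17 of the 35 members and 15 of the 22 of hepatocyte source, and control replicate 2 the lowest for 21 and 15 of these.

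The alternative pathway genes fell while C3 rose. Factor B (Cfb), the protease subunit of its convertase, was at 502, 309, 360 and 474 FPKM in the controls and at 259, 274, 288 and 246 FPKM with alcohol. No alcohol value reached the lowest control, and the log2 change was -0.60 (SE 0.16, limma adjusted p = 0.00891). The ratio of C3 to Cfb went from 1.91 ± 0.407 to 4.65 ± 1.05. Cfb and C2 lie 85 bases apart on chromosome 17 and both fell. Cfp fell from 7.28 ± 2.90 to 4.12 ± 0.910 FPKM with overlapping groups (-0.64, SE 0.23, adjusted p = 0.0332). Leaving out control replicate 1 or 4 or alcohol replicate 2, 3 or 4 ended the call of Cfp (adjusted p = 0.0793, 0.0907, 0.0687, 0.0651 and 0.0785), and leaving out single samples gave 0.00526 to 0.0907. The TPM scale (adjusted p = 0.0813) and the fit without a filter (adjusted p = 0.101) ended it as well.

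Factor D (Cfd, also called adipsin), the protease that activates factor B and a typical adipocyte transcript, had the largest change of all members. It was at 3.30, 25.3, 17.9 and 7.08 FPKM in control replicates 1 to 4 and at 0.0283, 0, 0.141 and 0.234 FPKM in the alcohol samples. The groups were far apart and the controls spread widely. The log2 change was -3.39 (SE 0.45, limma adjusted p = 0.000152). In recovered reads Cfd had 1700 in the controls and 14 with alcohol, a ratio per library total of 0.00751 with a 95% interval of 0.0041 to 0.0126 that covers counting error only. The adipocyte markers differed in how they moved beside Cfd. Adiponectin (Adipoq) was at 0.583, 0, 0.0936 and 0.767 FPKM in control replicates 1 to 4 and at 0.0212, 0, 0 and 0.153 FPKM with alcohol, so control replicate 2, with the highest Cfd, was listed at 0. Of the 7 adipocyte markers, Plin1, Retn, Lep and Cidea stayed under 0.5 FPKM in every sample and Fabp4 rose. Car3, from the same list, was at 1354, 2085, 2018 and 1679 FPKM in the controls and 1012 to 1196 FPKM with alcohol. It fell (log2 change -0.70, limma adjusted p = 0.00375) and had the same order as Cfd among the controls. Its level was far above that of the other listed markers, so it was not read as a measure of adipocytes here. The 5 markers Adipoq, Plin1, Retn, Lep and Cidea summed to 0.0226 to 1.33 FPKM in the controls and 0.0224 to 0.218 FPKM with alcohol, with Lep at 0 in all 4 alcohol samples, and the part of adipose tissue in the Cfd values was not tested.

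**Figure D3:**
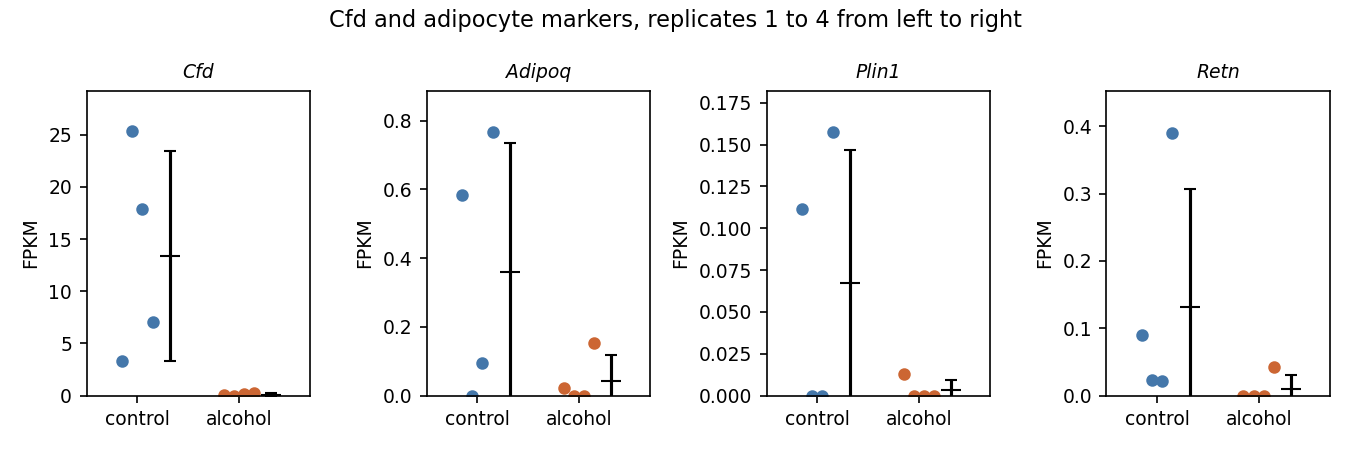
FPKM of Cfd and of the adipocyte markers Adipoq, Plin1 and Retn in each sample, with the group mean and SD beside the points (bars are clipped at 0). Cfd is highest in control replicate 2 at 25.3 FPKM, where Adipoq is at 0, and is at most 0.234 FPKM with alcohol.

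Of the 6 terminal pathway genes 5 fell, all but Hc. The windows before the annotated starts of C3, which rose, and of C6, C8a, C8b and C9, which fell, are shown so that the promoters of genes that moved in opposite directions can be read side by side. They are up to 250 bases from RefSeq on GRCm38.p6, printed 5′ to 3′ on the gene's strand, and bases inside the annotated gene were left off for C9 and C6. Capitals mark matches, on either strand, to TTGCNNAA (C/EBP), TTCNNNGAA (STAT) or GTTAAT (HNF1), and no matches overlap in these windows. C3 (chr17:57228137-57228386, minus strand) has a C/EBP match 45 bases before the start.
C3: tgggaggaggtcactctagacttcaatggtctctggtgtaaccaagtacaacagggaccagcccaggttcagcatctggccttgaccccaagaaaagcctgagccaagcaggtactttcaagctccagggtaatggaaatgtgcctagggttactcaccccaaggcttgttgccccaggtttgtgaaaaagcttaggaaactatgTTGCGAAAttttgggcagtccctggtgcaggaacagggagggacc
C9 (chr15:6445096-6445326, plus strand) has a C/EBP match 132 bases before the RefSeq start, counted with the 19 bases next to that start that were left off.
C9: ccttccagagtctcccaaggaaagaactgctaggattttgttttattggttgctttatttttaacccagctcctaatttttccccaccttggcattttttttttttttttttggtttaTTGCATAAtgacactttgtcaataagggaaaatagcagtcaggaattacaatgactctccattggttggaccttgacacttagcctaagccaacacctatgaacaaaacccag
C6 (chr15:4726960-4727174, plus strand) has no match to the 3 motifs in these letters.
C6: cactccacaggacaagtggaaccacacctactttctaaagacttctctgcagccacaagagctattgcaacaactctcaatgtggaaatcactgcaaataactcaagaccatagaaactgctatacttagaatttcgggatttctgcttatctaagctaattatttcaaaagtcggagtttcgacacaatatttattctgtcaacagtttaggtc
C8a (chr4:104876399-104876648, minus strand) has a STAT match 228 and an HNF1 match 107 bases before the start.
C8a: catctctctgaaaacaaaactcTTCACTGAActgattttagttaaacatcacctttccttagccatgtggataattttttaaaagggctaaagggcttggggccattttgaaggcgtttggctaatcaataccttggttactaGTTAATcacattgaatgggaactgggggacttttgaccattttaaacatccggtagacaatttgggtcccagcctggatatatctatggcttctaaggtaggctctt
C8b (chr4:104766067-104766316, plus strand) has an HNF1 match 206 bases before the start, on the opposite strand.
C8b: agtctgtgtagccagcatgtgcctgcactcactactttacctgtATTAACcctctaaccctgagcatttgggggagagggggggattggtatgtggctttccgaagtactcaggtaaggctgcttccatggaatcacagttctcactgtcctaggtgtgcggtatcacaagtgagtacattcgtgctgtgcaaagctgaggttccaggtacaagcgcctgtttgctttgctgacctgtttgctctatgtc
Of 27025 promoter windows of 250 bases, 9.55% held the C/EBP motif, 7.18% the STAT motif and 6.52% the HNF1 motif. Of the 26 complement genes with a window, 4, 3 and 7 held them in the same order. The HNF1 motif was in 5 of 13 windows of genes that fell and in 1 of 6 of genes that rose. These counts include C1ra, whose match lies 160 bases before the RefSeq start. In that window the last 216 bases are inside the annotated gene. The window of C8g, which also fell, holds no match and is not printed. A match is a description of the letters and not a measured binding site.

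C6 was at 156, 68.6, 98.9 and 117 FPKM in control replicates 1 to 4 and at 32.9, 14.0, 26.2 and 14.3 FPKM in the alcohol samples. The lowest control was above the highest alcohol value, and the means differed 5.04-fold (log2 change -2.31, SE 0.30, limma adjusted p = 0.000128). C9, whose copies form the wall of the pore, was at 405, 234, 255 and 423 FPKM in the controls and at 91.8, 76.9, 101 and 80.4 FPKM with alcohol. The groups did not overlap, and the fall was 3.76-fold in means (-1.86, SE 0.20, adjusted p = 3.92e-05). C6 and C9 lie on chromosome 15 with a gap of 1630 kb, C6 at 4727175-4814967 and C9 at 6445327-6498751, both on the plus strand.

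The 3 chains of C8, which anchors the complex in the membrane, fell by less. C8a was at 303, 191, 180 and 235 FPKM in the controls and at 138, 103, 95.9 and 112 FPKM with alcohol, with a log2 change of -0.99 (SE 0.18, limma adjusted p = 0.000847). C8b was at 325, 155, 190 and 242 FPKM in the controls and at 137, 129, 128 and 138 FPKM with alcohol (-0.72, SE 0.20, adjusted p = 0.00932). C8g, encoded on chromosome 2 and unlike the others a lipocalin, was at 287, 343, 360 and 378 FPKM in the controls and at 161, 215, 167 and 190 FPKM with alcohol (-0.90, SE 0.13, adjusted p = 0.000297). In none of the 3 did the groups overlap, and the order among controls differed, since control replicate 1 was the highest for C8a and C8b and the lowest for C8g. C8b and C8a are neighbours on chromosome 4, C8b at 104766317-104804548 on the plus strand and C8a at 104815679-104876398 on the minus strand, and their ratio, C8a over C8b, was 1.02 ± 0.144 in the controls and 0.843 ± 0.114 with alcohol.

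Hc, the gene of C5, was at 199, 92.7, 97.1 and 129 FPKM in the controls and at 101, 65.2, 97.9 and 66.0 FPKM with alcohol. Alcohol replicates 1 and 3 lay among the controls, and the change did not pass (log2 change -0.61, SE 0.24, limma adjusted p = 0.0533). It passed as lower without control replicate 2 or 3 (adjusted p = 0.0327 and 0.0438) or alcohol replicate 1 or 3 (adjusted p = 0.0405 and 0.0479), out of 0.0327 to 0.129 over single samples left out. With median-of-ratios scaling it passed too (-0.94, adjusted p = 0.00741), and without control replicate 1 the change was -0.38. Hc and C3 varied together within the groups and moved apart between them. The ratio of C3 to Hc was 6.35, 5.77, 6.52 and 6.05 in the controls and 15.6, 15.5, 14.2 and 15.1 with alcohol, while C3 itself varied from 535 to 1266 FPKM among the controls. The ratio of C6 to Hc was 0.862 ± 0.126 in the controls and 0.256 ± 0.0528 with alcohol, and that of C9 to Hc 2.62 ± 0.511 and 1.08 ± 0.143, with no overlap between the groups for either. The ratio of C3 to C9 went from 2.43 ± 0.531 to 14.1 ± 2.09. A ratio within a sample does not depend on a scaling of the whole library by 1 factor, but these ratios were chosen after the values were seen and carry no test.

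**Figure D4:**
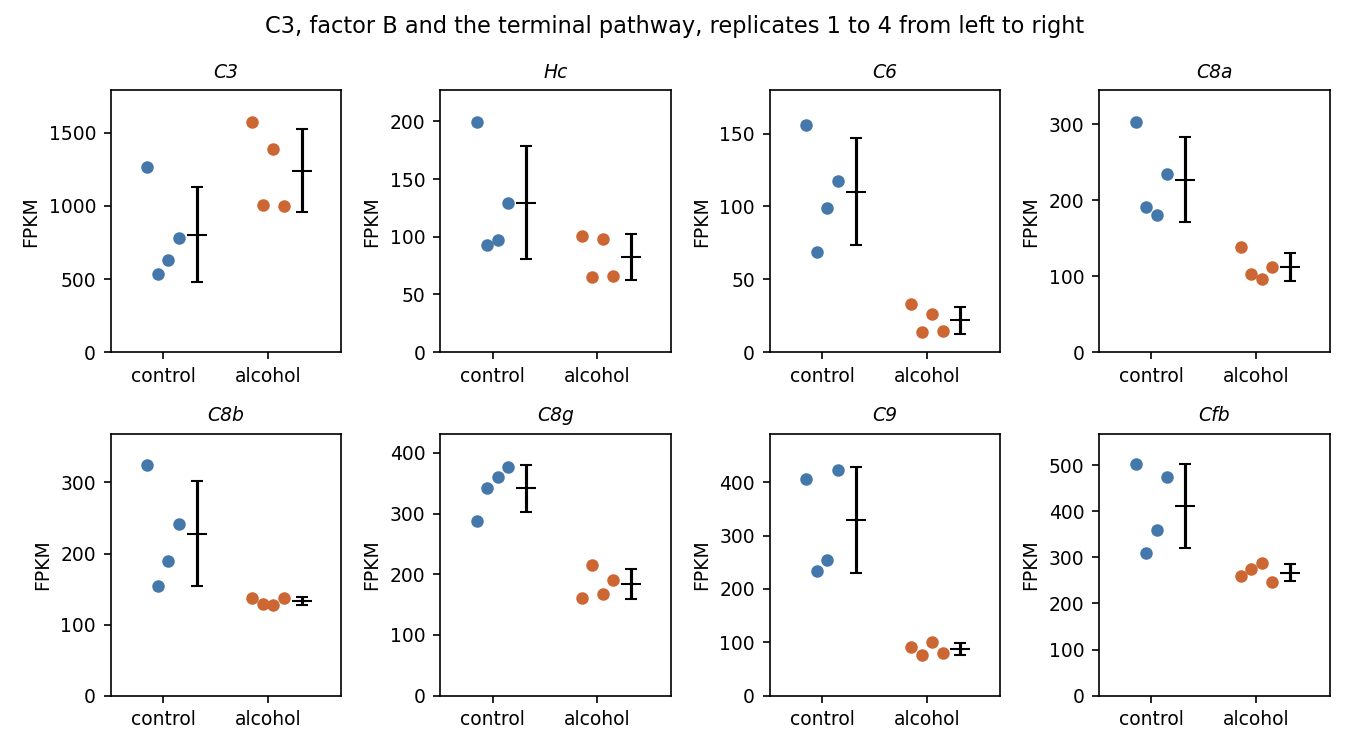
FPKM of C3, the 6 terminal pathway genes and Cfb in each sample, with the group mean and SD beside the points and every axis starting at 0. Control replicate 1 is the highest control for C3, Hc, C6, C8a, C8b and Cfb, and C6, the C8 chains, C9 and Cfb show no overlap between the groups.

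**Figure D5:**
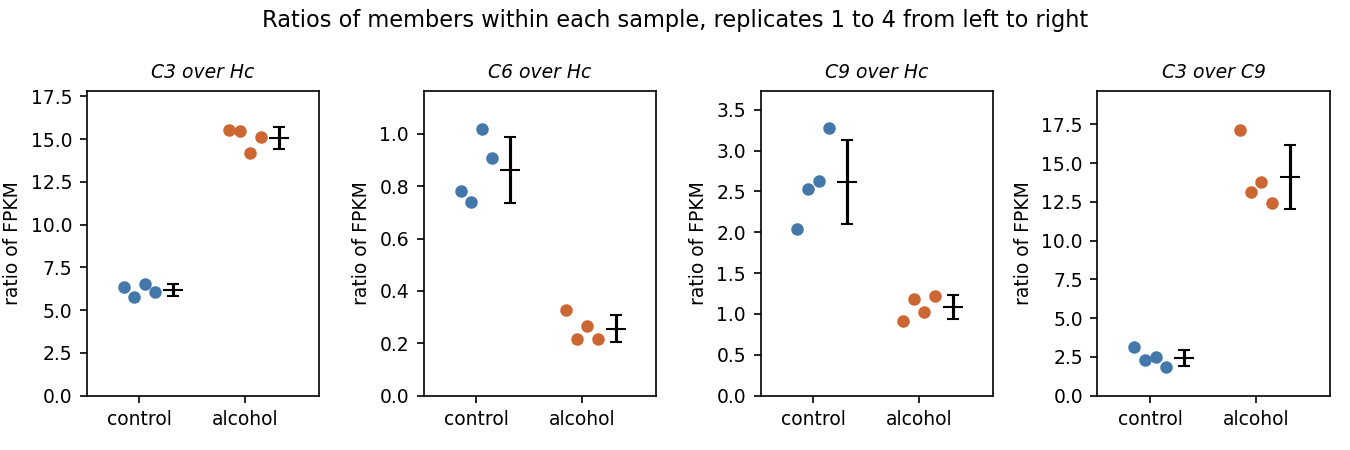
Ratios of FPKM within each sample for C3 over Hc, C6 over Hc, C9 over Hc and C3 over C9, with the group mean and SD beside the points. C3 over Hc lies between 5.77 and 6.52 in the 4 controls and between 14.2 and 15.6 in the 4 alcohol samples.

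The receptors of the fragments C3a and C5a, C3ar1 and C5ar1, are carried mainly by myeloid cells and had few reads. C3ar1 was at 0.267, 0.142, 0.288 and 0.206 FPKM in the controls and at 0.486, 0.326, 0.339 and 0.319 FPKM with alcohol, from 21 to 43 and from 51 to 80 reads. C5ar1 was at 0.168, 0.193, 0.0785 and 0.138 FPKM in the controls and at 0.894, 0.241, 0.223 and 0.272 FPKM with alcohol, from 7 to 17 and from 22 to 88 reads. All alcohol values were above all control values for both, as for 39.5% of all tested genes, a set without these 2. An exact 2-sided permutation test gave p = 0.029 for each (0.029 adjusted over the 2 genes). That is the smallest p that 70 assignments of 4 against 4 allow, and any gene so separated reaches it. With median-of-ratios scaling the exact permutation p was 0.257 for C3ar1 and 0.0571 for C5ar1. Alcohol replicate 1 set most of the C5ar1 difference, which was 0.263 FPKM with it and 0.101 FPKM without it. In that library the 7 neutrophil markers summed to 36 FPKM, mostly from S100a8 (13.7 FPKM) and S100a9 (18.4 FPKM). The sum was 1.60 to 4.28 FPKM in the other alcohol samples and 2.80 to 4.89 FPKM in the controls. Ly6g had 1 read in alcohol replicate 1 and 0 in every other sample. The part of neutrophils in the C5ar1 value was not tested.

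Among the regulators, the most abundant soluble ones fell and C4bp rose. C4bp, the cofactor for cleavage of C4b, was at 408, 304, 331 and 346 FPKM in the controls and at 544, 557, 522 and 538 FPKM with alcohol. The alcohol values were close together and above every control (log2 change 0.64, SE 0.12, limma adjusted p = 0.00112), and with median-of-ratios scaling the call was just lost (adjusted p = 0.0505, out of 0.000371 to 0.0505 over all alternatives). Its ratio to C4b went from 1.81 ± 0.339 to 3.58 ± 0.660. Serping1, the C1 inhibitor, was at 656, 464, 615 and 668 FPKM in the controls and at 404, 351, 415 and 361 FPKM with alcohol. Its groups did not overlap, and the log2 change was -0.64 (SE 0.14, adjusted p = 0.00317). Vtn, which binds the forming attack complex, fell by 0.56 (SE 0.15, adjusted p = 0.0083), also with no overlap between the groups.

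Factor I (Cfi), the protease that inactivates C3b and C4b, fell from 335 ± 54.3 to 255 ± 11.1 FPKM (log2 change -0.38, SE 0.13, limma adjusted p = 0.0295), and clusterin (Clu), a chaperone that holds the attack complex in solution, from 745 ± 185 to 521 ± 16.6 FPKM (-0.48, SE 0.17, adjusted p = 0.0348), with overlapping groups for Clu. The call of Cfi ended without control replicate 1 or 4 (adjusted p = 0.0583 and 0.0787) or alcohol replicate 2, 3 or 4 (adjusted p = 0.0505, 0.064 and 0.0714), out of 0.0148 to 0.0787, and also on the TPM scale (adjusted p = 0.179) and with quantile normalization (adjusted p = 0.0839). That of Clu held without control replicate 2 (adjusted p = 0.00562) and ended without each of the other 7 samples, with adjusted p of up to 0.0924 without control replicate 4. It also ended on the TPM scale (adjusted p = 0.142), with quantile normalization (adjusted p = 0.0763) and without a filter (adjusted p = 0.0831). For these regulators the 4 alcohol samples were more alike than the controls.

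Of the membrane regulators, Cd55, which breaks up the C3 convertases, was at 0.415, 0.825, 0.472 and 0.752 FPKM in the controls and at 1.47, 2.77, 2.09 and 2.65 FPKM with alcohol. Every alcohol value was above every control, a rise of 3.64-fold in means (log2 change 0.99, SE 0.15, limma adjusted p = 0.000271), and its near-identical copy Cd55b was at 0 in every control and at most 0.0475 FPKM with alcohol. Exons of Cd55 overlap those of Gm16083 on the other strand, from which reads cannot be told apart without strand. Cd55 and C4bp lie 172 kb apart on chromosome 1 and both rose. Sinusoidal endothelial markers, which mark a cell type that carries Cd55, summed to 14.3 to 23.8 FPKM in the controls and 60.1 to 73.7 FPKM with alcohol. All 7 rose, against 44.2% of all tested genes. The part of endothelial RNA in the Cd55 value was not tested. Cd59a, which blocks the insertion of C9, fell from 23.6 ± 2.72 to 19.4 ± 1.38 FPKM (-0.27, SE 0.11, adjusted p = 0.0476). Its call held without control replicate 1 (adjusted p = 0.034) and ended without each of the other 7 samples, with adjusted p of up to 0.137 without control replicate 2, and it ended on the TPM scale (adjusted p = 0.304), without a filter (adjusted p = 0.0544) and with limma voom on recovered reads (adjusted p = 0.0514). Cr1l (Crry), the rodent membrane cofactor for factor I, was at 21.2 ± 1.11 and 22.3 ± 1.51 FPKM and did not pass (0.06, SE 0.09, adjusted p = 0.566).

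A further list of 21 complement genes held 20 in the table, and Fcnb was not analysed here. Of its 12 tested genes 1 rose (against 44.2% of all tested genes), 5 fell (against 13%) and 6 did not pass, with a median log2 change of -0.30. Cd93, a C-type lectin of endothelium once named as a C1q receptor, rose from 0.266 ± 0.0644 to 1.89 ± 0.375 FPKM (log2 change 1.18, limma adjusted p = 1.25e-05), beside the endothelial markers given above. Cd59b, the second mouse Cd59 gene, fell from 1.65 ± 0.261 to 0.592 ± 0.0407 FPKM (-0.73, adjusted p = 0.000118), and how reads were divided between it and Cd59a is not known. Susd4, a membrane protein that inhibits complement, fell from 5.50 ± 2.36 to 2.91 ± 0.321 FPKM (-0.68, adjusted p = 0.0128), and by 0.45 without control replicate 1 (adjusted p = 0.00374). Cpn1, a subunit of the carboxypeptidase N that inactivates C3a and C5a, fell from 182 ± 14.8 to 134 ± 3.11 FPKM (-0.44, adjusted p = 0.00367). C1qbp, a largely mitochondrial protein that binds C1q, fell from 81.1 ± 8.98 to 65.8 ± 5.66 FPKM (-0.29, adjusted p = 0.0482), and its call was lost when any of the 7 samples besides control replicate 1 was left out, with adjusted p from 0.0507 to 0.116.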

How the data were processed

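RNA was sequenced from 8 samples, 4 control and 4 alcohol. Per the labels' protocols, RNA was purified on columns and libraries were made with a SMARTER mRNA kit. The authors deposited FPKM values, 1 column per sample for 21049 genes, and all columns were used. The submitters' processing notes name GRCm38 and mm10. The aligner, counter, annotation and strandedness stay unnamed, being not given in the sources used here. In FPKM a library is scaled by its total, so a change in abundant transcripts moves all other values.

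Whole reads were recovered for 21047 genes (99.99%, tolerance 0.0001 reads) by finding a library total and a gene length, and served for depth, counting intervals and 1 alternative. For genes with few reads the number may be too small by a whole factor.

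Groups were tested in R 4.3.3 by limma 3.58.1, fitted to log2(FPKM + 1) of the 9228 genes whose mean reached 1 FPKM, with a variance trend and 2-sided Benjamini-Hochberg adjusted p under 0.05. Log2 changes are alcohol minus control on that scale, which understates the change of low genes. Fold differences are ratios of mean FPKM. The 2 genes under the minimum had an exact permutation test in scipy 1.17.1. The script was tested on simulated data. Alternatives were the pseudocount, the filter, 3 scalings, a replicate block, limma voom on recovered reads, and each sample left out. Replicates were compared by chi-square of reads per gene, 8.05 to 167 within groups, and the most alike pair was alcohol replicates 2 and 4 (the next pair was at 41.8). Each was counted once.

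All members are named, with full values for up to 15 past the threshold that changed 2-fold or did not overlap. Values of C3, Hc and C1qa are given besides. Some genes of the further complement list are counted but not reported here by name. Members and lists were chosen with earlier results of these data known. Coordinates are from GENCODE M21 on GRCm38, which held all 35 genes, all protein-coding, and promoters from RefSeq on GRCm38.p6 (26 matched). Exons of C1s1, C2, Hc, Masp2, Fcna and Cd55 overlap those of a gene on the other strand, so their values may hold reads of either.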

Additional observations from a re-analysis of the deposited data

Results flagged for a closer look

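Of 82 groups of 4 samples examined for a sample far from the rest (its gap to the nearest sample over the group's range, by Dixon's critical value), 7 had one, and chance gives about 1 in 20. Alcohol replicate 1 was the highest of its group in 3 of them, with C1qb at 21.2 FPKM, C3ar1 at 0.486 FPKM and C5ar1 at 0.894 FPKM, all genes of myeloid source. Control replicate 1 stood apart for Masp1 at 9.63 FPKM and Susd4 at 9.02 FPKM, and control replicate 2 for Cd59a at 27.7 FPKM. Alcohol replicate 4 stood apart for Cd59b at 0.653 FPKM.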

How the results depend on the processing

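Of 33 tested complement genes 8 were higher and 18 lower. Without a filter on low values 5 were higher and 15 lower. With median-of-ratios scaling 3 were higher and 23 lower, beside 2170 and 2616 of all 9228 tested genes. On the TPM scale 8 were higher and 11 lower (4867 and 814 of all genes), and with quantile normalization 6 and 15 (2221 and 2307). Cr1l changed sign, to -0.26 with median-of-ratios scaling (adjusted p = 0.0359, out of 0.0359 to 0.824 over its alternatives) and -0.12 with quantile normalization. Leaving out each sample in turn gave 6 to 7 higher and 13 to 21 lower, and 19 of 26 calls held each time. A pseudocount of 0.1 gave 8 and 18, a minimum of 5 FPKM 6 and 18, and limma voom on recovered reads 8 and 17. With the replicate block 8 were higher and 20 lower, the added calls being C1qa (adjusted p = 0.0201) and Hc (adjusted p = 0.0117). The deviations of same-numbered samples correlated at 0.0706 to 0.349, and those of differently numbered samples at -0.425 to 0.29. Whether the numbers pair the samples is not stated in the sources, and the main fit did not use them. Of 2 alternatives chosen after seeing the data, averaging alcohol replicates 2 and 4 gave 7 and 13, and leaving out control replicates 1 and 2 gave 6 and 17. The cause of these differences was not tested. Depth limits C3ar1, C5ar1 and the alcohol values of Cfd, which rest on few reads.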
